A study of Rattus norvegicus with 16 samples.

Results

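Skin taken 14 days after its nerves were cut was compared with skin of naïve rats, gene by gene, with attention to which differences separated all denervated samples from all naïve samples. The comparison used 5 arrays of denervated skin and 6 arrays of naïve skin, chosen by their labels, out of 16 arrays in the series, and the other 5 arrays came from skin 7 days after denervation. All animals were adult female Sprague-Dawley rats whose age is not given. In the denervated rats, cutaneous nerves of the left side were cut and tied off above and below a dermatome (T11) left intact, and the sampled skin came from the zone toward the head, supplied before surgery by T9 and T10. Naïve rats had no operation and no anaesthesia, and there was no sham group, so loss of innervation cannot be told apart from the other consequences of surgery. Each sample of hairy back skin was hybridised to 1 Affymetrix Rat Genome 230 2.0 array and held the cutaneous trunci, a thin sheet of skeletal muscle under the skin whose own motor supply is stated to have been spared. The values are log2 intensities normalised by robust multi-array averaging (RMA), given here as the median over the probesets of each of 14217 genes.

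Hairy skin is a layered tissue in which the epidermis and the hair follicles sit on a collagen-rich dermis, with fat and, in the rat, a skin muscle beneath. Hair follicles pass through repeated rounds of growth, regression and rest, and the keratins and keratin-associated proteins of the hair shaft, like trichohyalin of the inner root sheath, are made by growing follicles. Sensory and sympathetic axons, with their Schwann cells, end in all of these layers, and after a nerve is cut the stump beyond the cut degenerates while neighbouring intact axons may sprout into the vacated skin. In such bulk samples, fewer cells of a type and less RNA per cell cannot be told apart.

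The naïve arrays differed among themselves far more than the denervated arrays did. Across genes, which are not independent replicates, correlations between naïve arrays ranged from 0.912 to 0.994, with a median of 0.957, whereas those between 14 day arrays ranged from 0.993 to 0.996. Naïve replicates 1 and 2 had median correlations of 0.988 and 0.991 with the 14 day arrays, and the other 4 naïve arrays had 0.913 to 0.953. Of 4 differences between control probesets along a transcript, 1 divided the naïve arrays in this way, that between the 3′ end and the middle of beta-actin RNA. The end exceeded the middle by 0.18 and 0.23 on the log2 scale in naïve replicates 1 and 2, by 0.52 to 1.20 in the other naïve arrays and by 0.05 to 0.28 at 14 days. The 3′ end of beta-actin exceeded the 5′ end by 0.14 to 0.69 in naïve skin and by 0.47 to 0.74 at 14 days, with the lowest value in naïve replicate 5. For Gapdh the 3′ end differed from the middle by -0.08 to 0.02 and from the 5′ end by 0.29 to 0.34 in naïve skin, and by -0.07 to 0.05 and 0.32 to 0.37 at 14 days. The part of RNA quality in the results below was not tested, and the labels name no batches. No arrays held identical values. Defining markers of muscle, hair follicle, epidermis, fat, macrophages and endothelium had values in the table. Epidermal Krt14 lay between 12.86 and 13.23 on all 11 arrays.

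Against this spread, limma called 1272 genes higher at 14 days, 8.95% of the genes tested, and 2071 lower, 14.6%, at a Benjamini-Hochberg adjusted p under 0.05. A called gene is described here as clear of every naïve array when none of the 5 denervated values reached the range of the 6 naïve values, and the distance between the nearest arrays of both groups is its gap. By this measure 423 of the higher genes (2.98% of all genes) and 906 of the lower genes (6.37%) were clear, and in 849 and 1165 called genes the groups overlapped. Clear changes were the smaller ones in the median. Their median log2 difference was 0.32 for higher and -0.43 for lower genes, against 0.41 and -0.49 among overlapping genes, and a difference of at least 1 was reached by 27 and 60 clear genes against 131 and 203 overlapping ones. The median naïve SD was 0.111 in clear higher genes and 0.280 in overlapping higher genes, and 0.169 and 0.328 in lower genes. Among higher genes, 173 of the 423 clear and 196 of the 849 overlapping ones were near the lowest values, where no size is read. Among lower genes these were 79 of 906 and 103 of 1165. The part of such genes in these medians was not tested. Whether called or not, the groups did not overlap in 3.69% of genes on the higher side and 6.66% on the lower side, which included 142 genes that were not called.

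**Figure D1:**
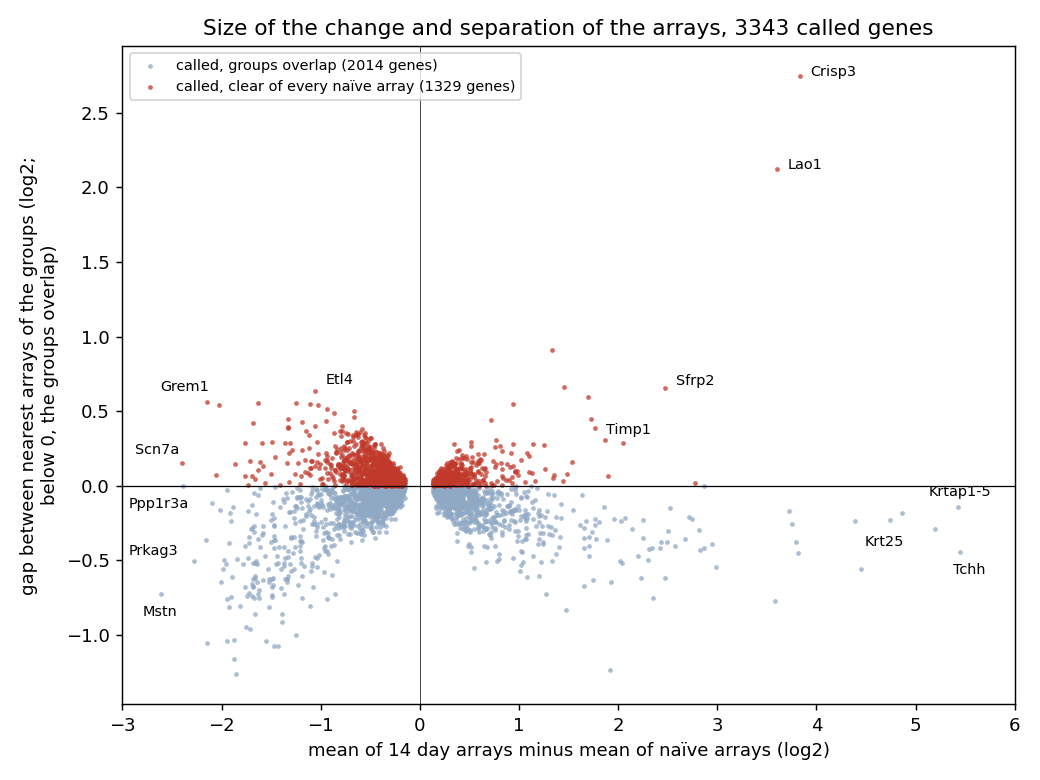
Each point is 1 of the 3343 genes called in limma; the x axis is the mean of the 14 day arrays minus the mean of the naïve arrays (log2) and the y axis the gap between the nearest arrays of both groups (log2), negative where the groups overlap. Hair genes such as Tchh and muscle genes such as Mstn lie at the far sides and below the line of no overlap, at positions that give no exact size because their values are near the top or near the lowest on the arrays, and Crisp3 has the largest gap, 2.75.

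The overlap was mostly that of the same naïve arrays. Of the 849 overlapping higher genes, 638 (75.1%) overlapped with naïve replicates 1 or 2 or both and with no other naïve array, and the same held for 999 of 1165 lower genes (85.8%). Naïve replicate 2 lay within or beyond the 14 day range in 552 of the overlapping higher genes and 963 of the lower genes. Naïve replicate 4 did so in 35 and 23 genes. With each naïve array left out in turn, 271 of 423 clear higher genes (64.1%) stayed called in all 6 fits, against 125 of 849 overlapping ones (14.7%). Among lower genes, 773 of 906 clear genes (85.3%) and 400 of 1165 overlapping genes (34.3%) stayed called in all 6. Without naïve replicates 1 and 2 together, 403 of the clear and 786 of the overlapping higher genes were still called, as were 891 and 1136 of the lower genes. Without naïve replicates 4 and 5 together, these counts were 169 and 59 for higher genes and 591 and 97 for lower genes. Of all genes, 21.1% were called higher and 21.8% lower without naïve replicates 1 and 2. Without naïve replicates 4 and 5 these shares were 1.8% and 4.98%. They are the background for the counts of each list without either pair.

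Of the 66 called genes that are named by the rule used here, 46 stayed called with any 1 of the 16 arrays left out, 14 higher and 32 lower. Among the higher ones were Crisp3, Lao1, Bcat1, Sfrp2, Timp1, Lif and Krt36, and among the lower ones Klf5, Scel, Scn7a, Etl4, Snx14 and all of the named respiratory chain and ATP synthase genes. No call was lost without naïve replicates 1 or 2, whereas 18 were lost without naïve replicate 4, 17 without replicate 6, 9 without replicate 5 and 6 without replicate 3. Each 14 day array decided between 4 and 11 calls. The calls lost included those of Tchh, Krt25, Krt71, Krtap1-1, Krtap1-5, Mt4, S100a3, Msx2, Insig1 and Scd2 without naïve replicates 4 or 6, of Itgam without naïve replicate 4, of Gap43, Fosl1, Sprr3, Trpm1 and Krt18 without naïve replicates 4 or 6, of Dhrs7c and Myh4 without any of naïve replicates 3 to 6, and of Fkbp5 and Tyms without 14 day replicates 2 or 5. The highest adjusted p over these leave-outs was 0.0573 for Tchh, 0.0974 for Msx2 and 0.1 for Krt18.

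**Figure D2:**
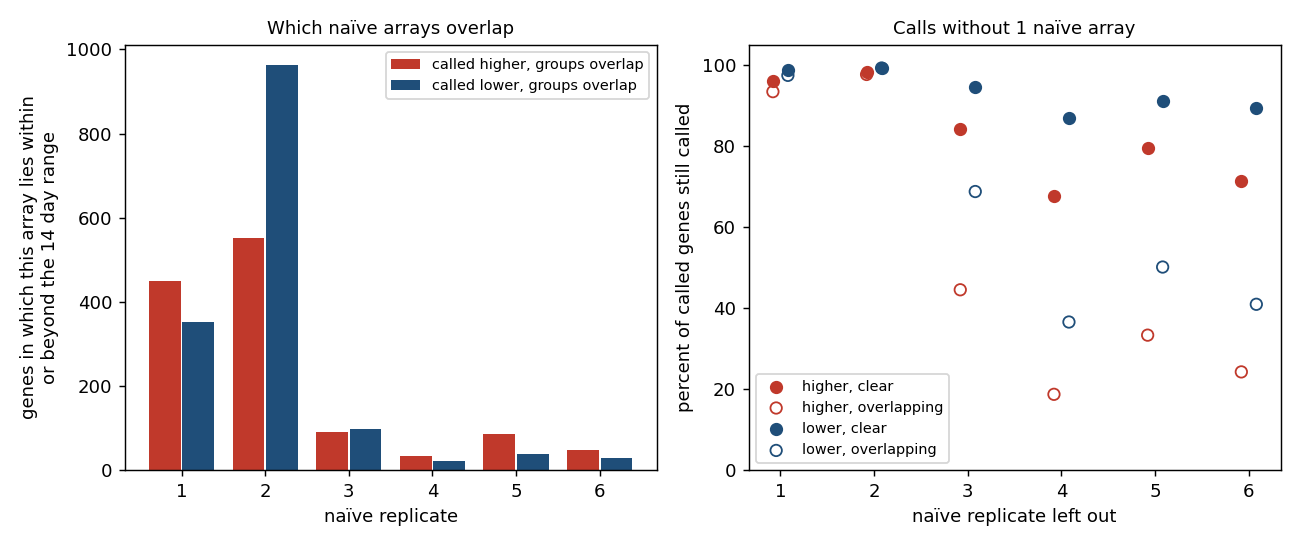
Left, for each naïve replicate, the number of called genes with overlapping groups in which that array lay within or beyond the 14 day range. Right, the percent of called genes still called when that array was left out, separately for clear genes (filled circles) and overlapping genes (open circles): leaving out replicates 1 or 2 kept at least 93.4% of every class, and leaving out replicate 4 kept 67.6% of clear and fewer of the overlapping higher genes.

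The widest gap above every naïve array was that of Crisp3, and those of Lao1 and Bcat1 were among the 10 widest. Crisp3, a cysteine-rich secretory protein, was at 7.89, 8.50, 8.61, 6.96 and 7.52 in the 5 denervated samples and between 3.96 and 4.21 in naïve skin, with a naïve median of 4.05. Its naïve values were alike and lay at the bottom of the array scale, where the size of a change cannot be read (gap 2.75, adjusted p = 5.2e-05 in limma). Lao1, an L-amino acid oxidase, was at 10.42, 9.40, 10.47, 10.29 and 8.63 at 14 days, and its lowest, median and highest naïve values were 6.01, 6.22 and 6.50. That is a log2 difference of 3.60 ± 0.72 (standard error), or 12.1-fold. Bcat1, a cytosolic aminotransferase of branched-chain amino acids, was at 8.26, 8.44, 8.11, 8.31 and 8.02 against 6.55 to 7.11 in naïve skin, a 2.51-fold difference (adjusted p = 0.00345). Neither Lao1 nor Bcat1 had a naïve array near the denervated range.

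Sfrp2, a secreted modulator of Wnt signalling, was at 10.06, 8.57, 8.34, 9.55 and 8.84 at 14 days and between 5.71 and 7.69 in naïve skin, 5.55-fold higher (log2 2.47 ± 0.46, adjusted p = 0.00381). Timp1, an inhibitor of matrix metalloproteinases, was at 9.35, 8.67, 8.47, 9.84 and 8.85 against 6.12 to 8.09, 3.41-fold higher (adjusted p = 0.0095). In both genes naïve replicates 1 to 3 lay above replicates 4 to 6, yet the highest of them remained under the lowest denervated sample. The lipocalin gene Apod was 3.32-fold higher, with a gap of 0.45, and its naïve values split in another way, at 8.54 and 8.61 for replicates 1 and 2 and between 6.67 and 7.38 for replicates 3 to 6. Stfa3, a cysteine protease inhibitor, Nipsnap3b, the metalloproteinase gene Mmp19 and Fscn1, which encodes an actin-bundling protein, completed the 10 widest gaps, from 0.66 to 0.44.

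Among clear lower genes the widest gap was that of Etl4, at 7.01, 6.92, 7.11, 6.96 and 6.84 at 14 days and between 7.74 and 8.54 in naïve skin. The difference was -1.06 ± 0.12 on the log2 scale (gap 0.63, adjusted p = 0.000705). Klf5, a transcription factor of proliferating epithelia, was at 7.99, 7.51, 8.02, 8.04 and 7.81 against 8.55 to 9.07, and Scel, which encodes the cornified envelope precursor sciellin, was at 9.82, 9.81, 9.88, 9.77 and 9.69 against 10.38 to 10.62. The naïve SD was 0.085 for Scel and 0.190 for Klf5, and Etl4 had 0.316, close to the median of overlapping lower genes. In all 3 the nearest naïve sample was more than 0.4 above the highest denervated one. Rgs2, a regulator of G protein signalling, was 1.82-fold lower, Snx14, a sorting nexin, 2.16-fold lower, and the deubiquitinase gene Otud1 had a gap of 0.54. Grem1, which encodes an antagonist of bone morphogenetic proteins, was clear as well, although its naïve values were widely spread. Replicates 1 and 2 of naïve skin were both at 4.61 and the other 4 between 5.67 and 7.53, and the denervated values were 4.05, 3.99, 3.84, 3.99 and 3.90, near the lowest on these arrays. Moxd1, a copper-dependent monooxygenase gene, followed the same order, at 8.49 and 8.39 for naïve replicates 1 and 2, between 9.65 and 9.92 in the other naïve arrays and from 7.44 to 7.84 at 14 days. Elmod1 and Wfdc21 had gaps of 0.55 and 0.54.

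**Figure D3:**
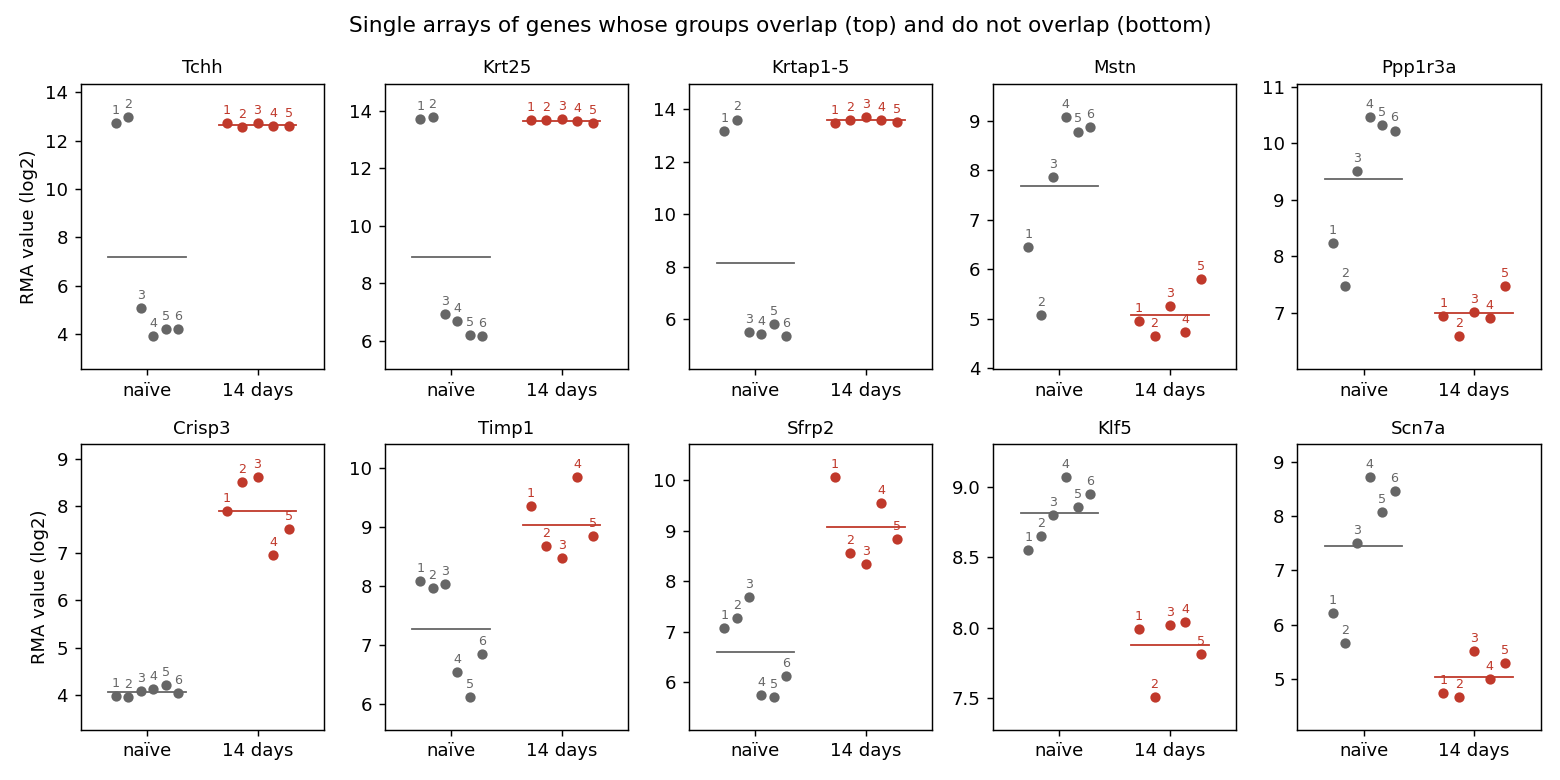
RMA values (log2) of single arrays, numbered by replicate, for 5 called genes whose groups overlap (top row) and 5 that are clear of every naïve array (bottom row); horizontal lines are group means. In Tchh, Krt25 and Krtap1-5 the naïve replicates 1 and 2 sit with the 14 day arrays, whereas in Crisp3 all naïve values lie between 3.96 and 4.21.

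Genes of the growing hair follicle had large differences that rested, for nearly all members, on the spread among naïve arrays. Of 14 measured genes of the hair shaft, the keratin-associated proteins and the inner root sheath, 13 were called higher and none lower, with a median log2 difference of 3.24 against 0.02 over all genes, but 1 of the 13 was clear of every naïve array and 3 stayed called with each naïve array left out. The 50 bases before the start of some of these genes are shown. Capitals mark the exact letters TATAAA of a TATA box. They were searched on the gene's strand between 11 and 50 bases before the start. Near variants were not searched for, among them the letters tatataag printed for Krt36. The sequences were read from RefSeq (GRCr8), 5′ to 3′ on the gene's strand, at chr2:181787059-181787108 (plus strand) for Tchh, chr10:84771198-84771247 (minus) for Krt25, chr7:134761034-134761083 (minus) for Krt71, chr10:85039857-85039906 (minus) for Krtap1-5, chr10:85042477-85042526 (minus) for Krtap1-1 and chr10:85540404-85540453 (minus) for Krt36.
Tchh: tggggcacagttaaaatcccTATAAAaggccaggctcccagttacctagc
Krt25: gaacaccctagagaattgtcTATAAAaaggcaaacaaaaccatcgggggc
Krt71: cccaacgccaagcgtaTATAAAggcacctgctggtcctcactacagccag
Krtap1-5: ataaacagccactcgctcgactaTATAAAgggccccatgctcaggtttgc
Krtap1-1: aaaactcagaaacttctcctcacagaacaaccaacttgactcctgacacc
Krt36: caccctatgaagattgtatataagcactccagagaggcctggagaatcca
The letters were found in 4 of the 12 hair genes with a sequence and in 300 of 11700 genes overall (2.56%). They were not particular to hair genes, at 7 of 18 cornified envelope, 6 of 35 sarcomere and 6 of 36 matrix and wound repair genes. Among respiratory chain and ATP synthase genes, 1 of 70 had them. They were found in 18 of 338 clear higher genes and 4 of 767 clear lower genes. These letters say nothing of which factor binds.

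Tchh encodes trichohyalin, a structural protein of the inner root sheath, and was at 12.71, 12.56, 12.72, 12.61 and 12.61 at 14 days. In naïve skin, 2 samples (replicates 1 and 2) were at 12.71 and 13.00 and the other 4 between 3.92 and 5.07. Krt25, an inner root sheath keratin, was at 13.68, 13.67, 13.74, 13.64 and 13.58 in denervated skin, at 13.73 and 13.81 for naïve replicates 1 and 2 and between 6.16 and 6.92 for the other naïve arrays. In both genes, then, 2 naïve arrays lay at or near the denervated level and the other 4 lay far below it. Krtap1-5, a keratin-associated protein of the shaft, was at 13.47, 13.60, 13.72, 13.58 and 13.52 at 14 days, with naïve values of 13.17, 13.61, 5.51, 5.43, 5.83 and 5.36. The hair metallothionein Mt4 and the calcium-binding S100a3, which were named for their size among overlapping genes, had the same division, with Mt4 at 13.08 and 13.31 in naïve replicates 1 and 2 but from 5.21 to 5.74 elsewhere in naïve skin. Denervated values of these genes approached the upper limit of the arrays, and their fold changes are not given. The inner root sheath keratin Krt71 and Krtap1-1 were divided likewise, and Krtap13-2l1, at 3.99 to 4.48 against 3.76 to 4.05, stayed near the lowest values. Krt36 was the gene clear of every naïve array, at 8.53, 9.13, 8.85, 8.54 and 8.99 against 8.47 and 8.37 for the nearest naïve samples (replicates 1 and 2) and 5.91 to 6.55 for the rest, a gap of 0.06. Leaving out those 2 naïve samples gave 13 called hair genes (92.9%, against 21.1% of all genes called higher), of which 12 were clear. Leaving out naïve replicates 4 and 5 gave a single call (7.14%, against 1.8%).

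Of 32 regulators of the follicle, 4 were called higher (12.5%, against 8.95% of all genes), 7 lower (21.9%, against 14.6%), and 21 were not called. Msx2, a transcription factor of the hair matrix, was at 8.48, 8.34, 8.39, 8.06 and 8.49 at 14 days, at 8.50 and 8.58 for naïve replicates 1 and 2 and between 5.10 and 5.33 for the other naïve samples (adjusted p = 0.0434). The Wnt effector Lef1 had the same division, 9.57 and 9.60 against 5.56 to 5.99 in naïve skin, with 9.20 to 9.49 at 14 days, and did not pass the test (adjusted p = 0.0516). None of the higher regulators was clear, but 4 of the lower ones were: Grem1, Bmp2, Nog and Nfatc1. Bmp2, a bone morphogenetic protein, was chosen after its values were seen, and was at 7.43, 7.37, 7.54, 7.30 and 7.46 against 7.68 to 8.89 in naïve skin. There were 16 higher (50%, against 21.1% of all genes) and 7 lower calls (21.9%, against 21.8%) without naïve replicates 1 and 2. Without naïve replicates 4 and 5 there were 0 higher and 2 lower calls (6.25% lower, against 4.98% of all genes).

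Of 40 genes of DNA replication and mitosis, 7 were called higher (17.5%, against 8.95% of all genes) and none was clear (median log2 difference 0.39). Tyms, which encodes thymidylate synthase, had the lowest p, at 5.33, 5.71, 5.52, 5.62 and 5.88 against 5.17 to 5.41 in naïve skin, values near the lowest on the arrays. The proliferation marker Mki67 lay between 8.20 and 8.73 at 14 days, at 8.96 and 8.76 for naïve replicates 1 and 2 and between 7.17 and 7.90 for the other naïve samples (adjusted p = 0.244). With naïve replicates 1 and 2 left out, 30 of the 40 genes were called higher (75%, against 21.1% of all genes). With replicates 4 and 5 left out a single one was (2.5%, against 1.8%). Of 13 pigment cell genes, 1 (Trpm1) was called higher (7.69%, against 8.95% of all genes). Its naïve range was 4.18 to 5.08 and its 14 day range 4.64 to 5.38.

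Of 26 genes of basal and spinous keratinocytes, 16 were not called and the median log2 difference was -0.08. Called lower were 8 (30.8%, against 14.6% of all genes) and called higher 2 (7.69%, against 8.95%). Of the 8, 7 were clear of every naïve array (6.37% of all genes were lower and clear). The 7 were Klf5, described above, and 6 genes that were named after their values were seen: Krt15, Col17a1, Itgb4, Dst, Lamb3 and Lama3. All but Krt15 encode parts of the hemidesmosomes or of the laminin that fastens basal cells to the basement membrane. Col17a1 was at 9.72, 9.50, 9.45, 9.75 and 9.11 at 14 days, at 10.20 and 10.22 for naïve replicates 1 and 2 and between 10.95 and 11.34 for the other naïve samples, a log2 difference of -1.34 ± 0.20 (adjusted p = 0.0016). Krt15, a keratin of basal cells and of the follicle bulge, was at 12.13, 12.16, 12.11, 12.23 and 11.77 against 12.63 to 13.45 in naïve skin. Naïve replicates 1 and 2 were the nearest to the denervated samples in both. Krt14, the general basal keratin, did not pass the test (12.86 to 13.15 at 14 days, adjusted p = 0.583), nor did the spinous keratin Krt10 (adjusted p = 0.722). Without naïve replicates 1 and 2, 7 of the 26 genes were called lower (26.9%, against 21.8% of all genes). Without replicates 4 and 5 there were 5 (19.2%, against 4.98%), and in both fits all of them were clear. The 2 higher genes were also named after their values were seen. Notch3 was clear, at 7.65, 7.84, 7.80, 7.68 and 7.69 against 7.09 to 7.46, and the desmosomal cadherin gene Dsc2 overlapped, at 9.49, 9.76, 9.99, 9.45 and 9.59 against 9.64 and 9.66 for naïve replicates 1 and 2 and 5.31 to 5.73 for the other naïve samples (log2 difference 2.72, adjusted p = 0.038).

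Of 20 listed genes of the cornified envelope, 3 were called higher (15%, against 8.95% of all genes) and 1 lower (5%, against 14.6%), none of them clear. The list did not include Scel, described above as lower and clear. The member with the lowest p was Sprr3, at 5.19, 5.15, 5.08, 5.03 and 5.37 against 4.88 to 5.07 in naïve skin. Of 12 stress keratin and antimicrobial genes, 1 rose and 1 fell, 8.33% each. The latter, Serpinb2, an inhibitor of plasminogen activators, was at 6.93, 6.86, 6.89, 7.71 and 6.76 at 14 days and at 8.41, 7.55, 9.86, 9.43, 9.61 and 9.44 in naïve skin. Naïve replicate 2 lay below denervated replicate 4 and above the other denervated samples.

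Skeletal muscle genes were mostly called lower, and most of them overlapped with naïve replicate 2 alone. Of 107 measured genes of the sarcomere, of excitation-contraction coupling and of muscle glycogen, glycolysis and phosphagen, 70 were called lower (14.6% of all genes were) and none higher, with a median log2 difference of -1.22. Of the 70, 6 were clear of every naïve array, 58 overlapped with naïve replicate 2 and no other, 6 overlapped with replicates 1 and 2, and 22 stayed called with each naïve array left out. Mstn, which encodes the growth inhibitor myostatin, was at 4.96, 4.65, 5.26, 4.73 and 5.80 at 14 days and at 6.45, 5.08, 7.87, 9.09, 8.79 and 8.87 in naïve skin. Naïve replicate 2 lay inside the denervated range, which is near the lowest values, and naïve replicates 3 to 6 lay far above it. Ppp1r3a, the glycogen-targeting subunit of protein phosphatase 1 in muscle, was at 6.94, 6.59, 7.02, 6.91 and 7.47 against 8.24, 7.47, 9.51, 10.48, 10.33 and 10.23, and was 5.24-fold lower (log2 -2.39 ± 0.51, adjusted p = 0.0073), with naïve replicate 2 at the level of the highest denervated sample. Prkag3, a muscle subunit of AMP-activated protein kinase, was 4.85-fold lower (adjusted p = 0.0142), and Ryr1, the calcium release channel of the sarcoplasmic reticulum, 3.10-fold (adjusted p = 0.0153). Both overlapped with naïve replicate 2, as did Dhrs7c of the sarcoplasmic reticulum, Txlnb and the fast myosin heavy chain gene Myh4 among the other named muscle genes.

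The muscle genes that were clear of every naïve array, 6 in all, did so by small gaps. Tcap, a titin-binding protein of the sarcomere, was at 10.63, 9.71, 10.40, 10.18 and 9.98 at 14 days and at 11.02, 10.80, 12.42, 12.36, 12.49 and 12.27 in naïve skin, a gap of 0.16 (adjusted p = 0.0059). Gpd1, a cytosolic glycerol-3-phosphate dehydrogenase that fat cells also express, was at 8.17, 8.19, 8.45, 8.30 and 8.47 against 8.69 to 10.29, a gap of 0.22. The others, named after their values were seen, were Gbe1 and Gpt of glycogen and alanine metabolism, the glucose transporter gene Slc2a4 and the calcium channel gene Itpr1. Several of the most abundant muscle transcripts did not pass, with values close to the array maximum. Acta1, skeletal actin, lay between 13.48 and 13.62 at 14 days and between 13.44 and 14.01 in naïve skin (adjusted p = 0.0528), and Ckm, muscle creatine kinase, had an adjusted p of 0.0536. Of the 107 genes, 100 were called lower (93.5%, against 21.8% of all genes) and 96 were clear without naïve replicates 1 and 2. Without naïve replicates 4 and 5, 6 were called lower (5.61%), close to the 4.98% of all genes. The mean deviation of the 107 genes from their own averages over the 16 arrays ranged from -0.73 to -0.47 at 14 days and was -0.19 and -0.78 in naïve replicates 1 and 2 and from 0.73 to 1.31 in the other naïve arrays.

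Of 38 regulators of muscle fibres, 19 were called lower (50%, against 14.6% of all genes), 8 of them clear, and 1 was higher. Ppp3ca, a catalytic subunit of calcineurin, was at 8.83, 8.58, 8.92, 9.08 and 9.0 at 14 days and at 9.45, 9.37, 10.23, 10.80, 10.77 and 10.52 in naïve skin, 2.47-fold lower (adjusted p = 0.00391). All denervated samples were below all naïve samples. Six4, a transcription factor of the myogenic lineage, was at 4.39, 4.26, 4.46, 4.62 and 4.53 against 4.51 to 7.87 and overlapped with naïve replicate 2. Leaving out naïve replicates 4 and 5 gave 3 lower calls among these regulators (7.9%, against 4.98% of all genes), each of them clear.

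Of 25 genes known to respond when muscle itself loses its nerve, 1 was called higher (4%, against 8.95% of all genes) and 5 lower (20%, against 14.6%), with a median log2 difference of 0.03. Chrng and Chrna1 encode subunits of the fetal acetylcholine receptor, which muscle makes again when denervated. Chrna1 was at 5.38, 6.31, 5.51, 7.45 and 5.31 at 14 days and between 5.20 and 5.91 in naïve skin (log2 0.38 ± 0.51, adjusted p = 0.608), and Chrng was at 5.83, 6.11, 5.89, 6.55 and 5.73 against 5.51 to 5.70 (adjusted p = 0.253). Denervated replicates 2 and 4 were the highest in both genes, and the Chrng groups did not overlap although the gene was not called. Fbxo31, an F-box protein gene, was lower and clear, at 7.33, 7.43, 7.40, 7.29 and 7.11 against 7.55 to 8.69 (adjusted p = 0.00805). The atrophy ubiquitin ligase gene Trim63, chosen after its values were seen, was lower too, at 6.85, 7.01, 7.15, 7.04 and 7.02 against 7.43 to 9.90.

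Of 78 measured subunits of the respiratory chain and ATP synthase, 62 were called lower (79.5%, against 14.6% of all genes) and 1 higher, with a median log2 difference of -0.43, and 25 of the 62 were clear of every naïve array, against 6.37% of all genes. After a second quantile normalization of the arrays these counts were 42 lower and 10 clear, and with array medians subtracted they were 61 and 32. Of the called subunits, lower or higher, 49 stayed called in all 6 fits with a naïve array left out. To the 62 lower calls complex I contributed 30 of 36 genes, complexes II and III together 11 of 12, cytochrome c oxidase 9 of 15 and ATP synthase 12 of 15. The second quantile normalization gave 24, 8, 5 and 5, and the clear genes of ATP synthase went from 6 to 1. Ndufb1, an accessory subunit of complex I, was at 10.99, 11.04, 10.92, 10.83 and 10.79 at 14 days and between 11.12 and 11.59 in naïve skin, 1.37-fold lower (log2 -0.45 ± 0.08, adjusted p = 0.0037). Uqcrh, the hinge subunit of complex III, was at 11.11, 10.96, 11.11, 11.03 and 10.99 against 11.20 to 11.76, and Atp5mf of ATP synthase was between 10.90 and 11.16 against 11.24 to 11.91. The gaps of these 3 genes were each 0.08, and naïve replicate 2 was the lowest naïve array in each. The muscle isoforms Cox6a2 and Cox8b were among the lower genes that overlapped. The single higher gene, Cox4i2, an isoform of subunit IV chosen after its values were seen, was at 6.03, 6.22, 5.95, 5.82 and 6.16 against 5.29 to 5.80.

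Of 21 genes of the tricarboxylic acid cycle and of pyruvate dehydrogenase, 16 were called lower (76.2%, against 14.6% of all genes), 6 of them clear, and after a second quantile normalization 10 were lower and 2 clear. Of 23 genes of fatty acid oxidation 7 were lower (30.4%), 2 of them clear. Dld, a subunit shared by the 2-oxoacid dehydrogenases, was at 7.82, 7.96, 8.01, 7.92 and 7.81 at 14 days and between 8.17 and 8.86 in naïve skin, 1.66-fold lower (adjusted p = 0.00182). Etfa, an electron carrier of fatty acid oxidation, was at 9.78, 9.65, 9.72, 9.64 and 9.52 against 9.98 to 10.28. Both had all denervated samples under all naïve ones. Leaving out naïve replicates 4 and 5 gave 26 lower calls among the 78 respiratory chain and ATP synthase genes (33.3%, against 4.98% of all genes), 21 of them clear. Mitochondrial ribosomal protein genes, grouped by the start of their symbols, were called lower in 18 of 46 (Mrpl, 39.1%) and 13 of 27 (Mrps, 48.1%) cases, against 14.6% of all genes.

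Of 32 Schwann cell and myelin genes, 5 were called higher (15.6%, against 8.95% of all genes) and 2 lower (6.25%, against 14.6%), with a median log2 difference of 0.03. Scn7a, a sodium channel gene expressed by Schwann cells and by some other cell types, was at 4.75, 4.67, 5.51, 4.99 and 5.29 at 14 days and at 6.22, 5.66, 7.51, 8.71, 8.08 and 8.46 in naïve skin (gap 0.15, adjusted p = 0.00436). It was the lower Schwann cell gene with the lowest p, was near the lowest values after denervation and had the naïve order of the muscle genes. The growth-associated Gap43 was at 5.53, 5.47, 5.25, 5.66 and 5.56 against 4.75 to 5.30 and overlapped with naïve replicate 3 (adjusted p = 0.0391). The higher genes that were clear, both named after their values were seen, were Gjb1, which encodes a gap junction protein of myelin, at 5.77, 5.87, 5.86, 5.75 and 5.92 against 5.41 to 5.62, and Cadm4. Without naïve replicates 1 and 2 the list had 4 higher (12.5%) and 6 lower calls (18.75%), against 21.1% and 21.8% of all genes. Without replicates 4 and 5 it had 0 and 1, against 1.8% and 4.98% of all genes.

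Among 29 neurotrophic factors and their receptors, 3 were called higher (10.3%) and 2 lower (6.9%), against 8.95% and 14.6% of all genes. Lif, a cytokine that injured nerve is known to produce, was at 4.94, 5.08, 5.13, 4.96 and 5.07 at 14 days and between 4.52 and 4.76 in naïve skin, clear of every naïve array at values near the lowest on the arrays (gap 0.19, adjusted p = 0.0011). Ntf3, neurotrophin-3, was at 5.02, 5.07, 5.22, 5.19 and 5.18 against 5.09 to 5.90 and was called lower (adjusted p = 0.0188), overlapping with naïve replicate 2. Gfra2, the neurturin receptor gene and the other higher gene that was clear, was named after its values were seen and lay between 6.36 and 6.61 against 5.83 to 6.28. The low-affinity neurotrophin receptor Ngfr was at 5.60, 5.93, 5.65, 5.62 and 5.79 against 5.21 to 5.93 (adjusted p = 0.118). Of 44 genes of axon growth and guidance, 6 rose (13.6%) and 3 fell (6.82%). Sema3e, which encodes a repulsive guidance cue, was at 8.47, 8.34, 8.36, 8.43 and 8.02 against 8.81 to 9.29 and was clear (adjusted p = 0.00629). Leaving out naïve replicates 4 and 5 gave 1 higher call among the neurotrophic genes (3.45%) and 1 call in each direction among the guidance genes (2.27%). Of all genes, 1.8% were then called higher and 4.98% lower.

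Of the 35 lists, extracellular matrix and wound repair had the most higher genes that held against every naïve array. Of 54 measured, 16 were called higher and 1 lower, 11 of the 16 were clear against 2.98% of all genes, and the median log2 difference was 0.64. Besides Sfrp2 and Timp1, the acute phase protein gene Lbp was clear, at 7.50, 5.79, 5.70, 8.04 and 6.97 at 14 days and between 3.96 and 5.41 in naïve skin, where values were near the lowest (adjusted p = 0.0093). Its denervated replicates 1, 4 and 5 were well above replicates 2 and 3, and the same replicates 1 and 4 were the highest for Timp1 and Sfrp2. Fibrillin-1 (Fbn1), chosen after its values were seen, was at 11.51, 10.90, 10.89, 11.30 and 11.04 against 8.12 to 10.81, 2.80-fold higher with a gap of 0.08. The fibrillar collagen gene Col1a1 was near the top of the scale, between 13.64 and 13.84 at 14 days, and between 11.24 and 13.80 in naïve skin (adjusted p = 0.186). Without naïve replicates 4 and 5, in which matrix genes were lowest, 3 of the 54 genes were called higher (5.56%, against 1.8% of all genes), all of them clear. Without replicates 1 and 2, 20 were called higher (37.0%, against 21.1%) and 14 of them were clear. Among genes with symbols starting with Col, 8 of 41 were higher (19.5%, against 8.95% of all genes), 7 of them clear. Lower were 4 of the 41 (9.76%, against 14.6% of all genes), 3 of them clear.

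In the direct comparison of both denervated times, which leaves the naïve arrays out of the difference, 8.86% of all genes were higher and 10.1% lower at 14 days than at 7 days. Timp1 was between 10.66 and 12.22 at 7 days and between 8.47 and 9.84 at 14 days, a log2 difference of -2.18 (adjusted p = 0.00527) while it was still above every naïve sample. Snx14 was between 7.32 and 7.79 at 7 days and between 7.21 and 7.77 in naïve skin, and all 5 samples at 14 days were lower than both. Lao1 varied more at 7 days, from 6.10 to 10.89, and its difference between the times did not pass the test (adjusted p = 0.14).

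Of 28 macrophage genes, 5 were called higher (17.9%, against 8.95% of all genes) and none was clear. Itgam, an integrin of myeloid cells, had the lowest p and was at 6.67, 6.72, 6.03, 6.85 and 6.33 at 14 days and at 5.75, 5.85, 6.58, 5.77, 5.95 and 5.97 in naïve skin, where replicate 3 lay within the denervated range (adjusted p = 0.0252). The lysosomal macrophage marker Cd68 was between 7.92 and 8.53 at 14 days and between 7.01 and 8.99 in naïve skin (adjusted p = 0.243). Naïve replicate 3 was the highest naïve array in both genes. Leaving out naïve replicates 1 and 2 gave 11 higher macrophage genes (39.3%, against 21.1% of all genes). Leaving out replicates 4 and 5 gave none, against 1.8% of all genes. None of 35 interferon and antigen presentation genes, 13 mast cell genes or 27 endothelial genes was called by limma. Pecam1 of endothelium lay between 7.75 and 8.02 at 14 days, inside the naïve range of 7.40 to 8.21.

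Of 16 circadian clock genes, 8 were called lower (50%, against 14.6% of all genes), 2 of them clear, and 8 were not called, with a median log2 difference of -0.38. Bhlhe41, a transcriptional repressor of the clock, was at 8.72, 7.66, 7.44, 8.67 and 7.55 at 14 days and between 8.59 and 10.04 in naïve skin (adjusted p = 0.00837). Dbp, an output gene of the clock that was chosen after its values were seen, was at 8.67, 6.02, 6.25, 8.11 and 6.30 against 8.27 to 9.62. In both genes denervated replicates 1 and 4 were near the lower naïve arrays, and replicates 2, 3 and 5 were more than 1 unit lower. Nr1d1, Nr1d2, Per3 and Bhlhe40 had this order as well, whereas Clock lay between 7.00 and 7.12 in all 5 denervated samples. Bmal1, which peaks opposite to these genes, was at 6.44, 7.20, 6.97, 6.67 and 6.98 against 6.26 to 7.21 and did not pass (adjusted p = 0.444). A single clock gene was called lower without naïve replicates 4 and 5 (6.25%, against 4.98% of all genes). Without replicates 1 and 2, 9 were (56.25%, against 21.8%). The time of day at which skin was taken was not stated, and its part in these values was not tested. Of 16 glucocorticoid response genes, 3 fell (18.8%, against 14.6% of all genes) and 1 rose (6.25%, against 8.95%). The receptor gene Nr3c1 was clear, at 6.22, 6.01, 6.23, 6.39 and 6.17 against 6.47 to 7.13 (adjusted p = 0.0078), and the receptor's target Fkbp5 overlapped, at 7.90, 6.96, 7.22, 7.05 and 6.84 against 7.65 to 8.87 (adjusted p = 0.0212).

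**Figure D4:**
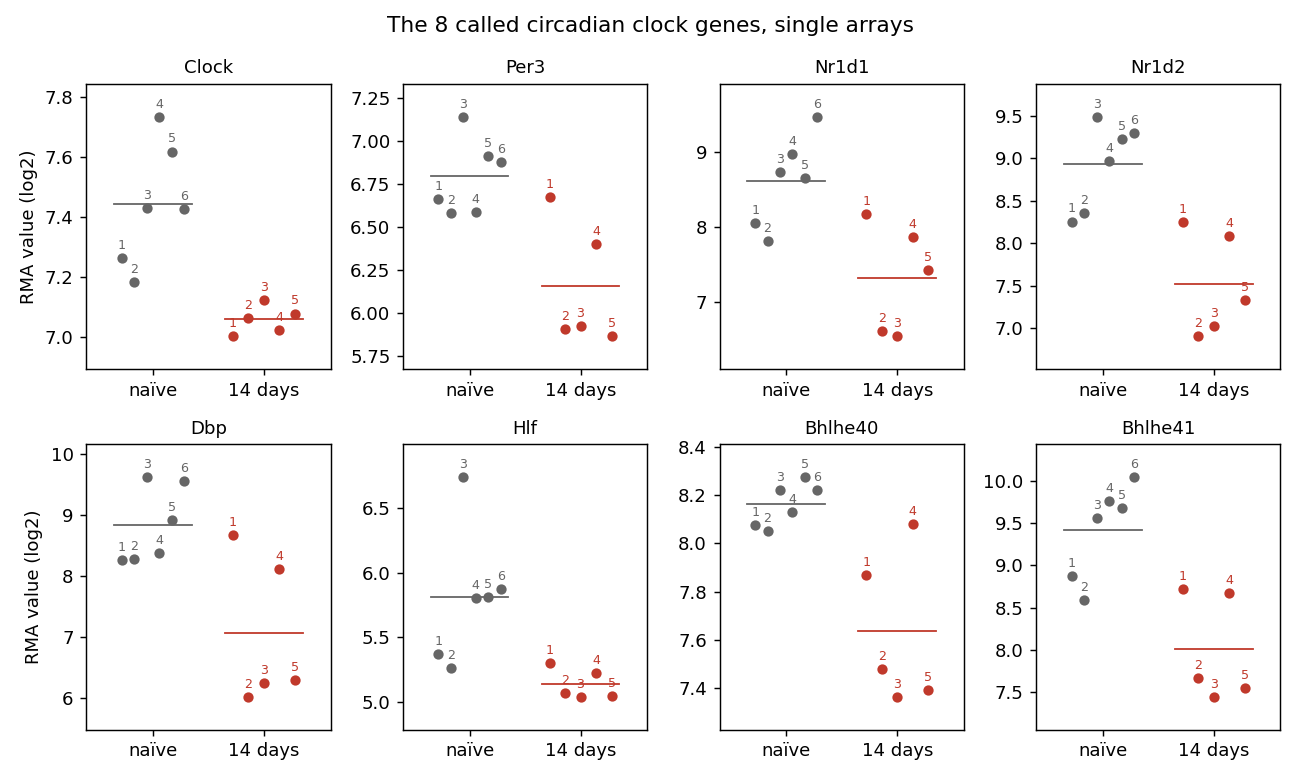
RMA values (log2) of single arrays, numbered by replicate, for the 8 called genes of the circadian clock; horizontal lines are group means. In Dbp, Nr1d2 and Bhlhe41 the 14 day replicates 2, 3 and 5 lie under replicates 1 and 4, and Clock is alike in all 5.

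Fat, sterol and sebaceous genes gave 3 higher and 5 lower calls over 3 lists, and of all genes 8.95% were called higher and 14.6% lower. Of 25 adipocyte genes, 3 were lower (12%), 2 of them clear of every naïve array, and none higher. Adipoq, the adipocyte hormone adiponectin, was at 9.48, 9.42, 9.84, 9.63 and 9.47 at 14 days and between 7.12 and 10.57 in naïve skin, where replicate 5 was lowest (adjusted p = 0.956). Of 20 sterol synthesis genes 1 was higher and 1 lower, 5% each. The higher gene was Insig1, a sterol-regulated brake on the pathway, at 11.20, 11.22, 11.26, 10.96 and 11.16 against 10.89 and 11.20 for naïve replicates 1 and 2 and 7.21 to 8.71 for the remaining naïve samples (adjusted p = 0.0241). Of 24 fatty acid and sebaceous gland genes, 2 were higher (8.33%) and 1 lower (4.17%). The desaturase gene Scd2 was at 7.07, 7.11, 7.13, 7.01 and 7.17 against 6.99 and 7.06 for naïve replicates 1 and 2 and 5.81 to 6.29 for the remaining naïve samples. Insig1 and Scd2 thus had the naïve division of the hair genes. Of 13 Merkel cell genes 1 was called higher (7.69%), Krt18, and of 27 immediate early genes 3 were higher (11.1%) and 1 lower (3.7%). Fosl1 was at 6.16, 5.98, 6.23, 6.18 and 6.05 against 5.47 to 6.24, and Fos did not pass (adjusted p = 0.59).

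**Figure D5:**
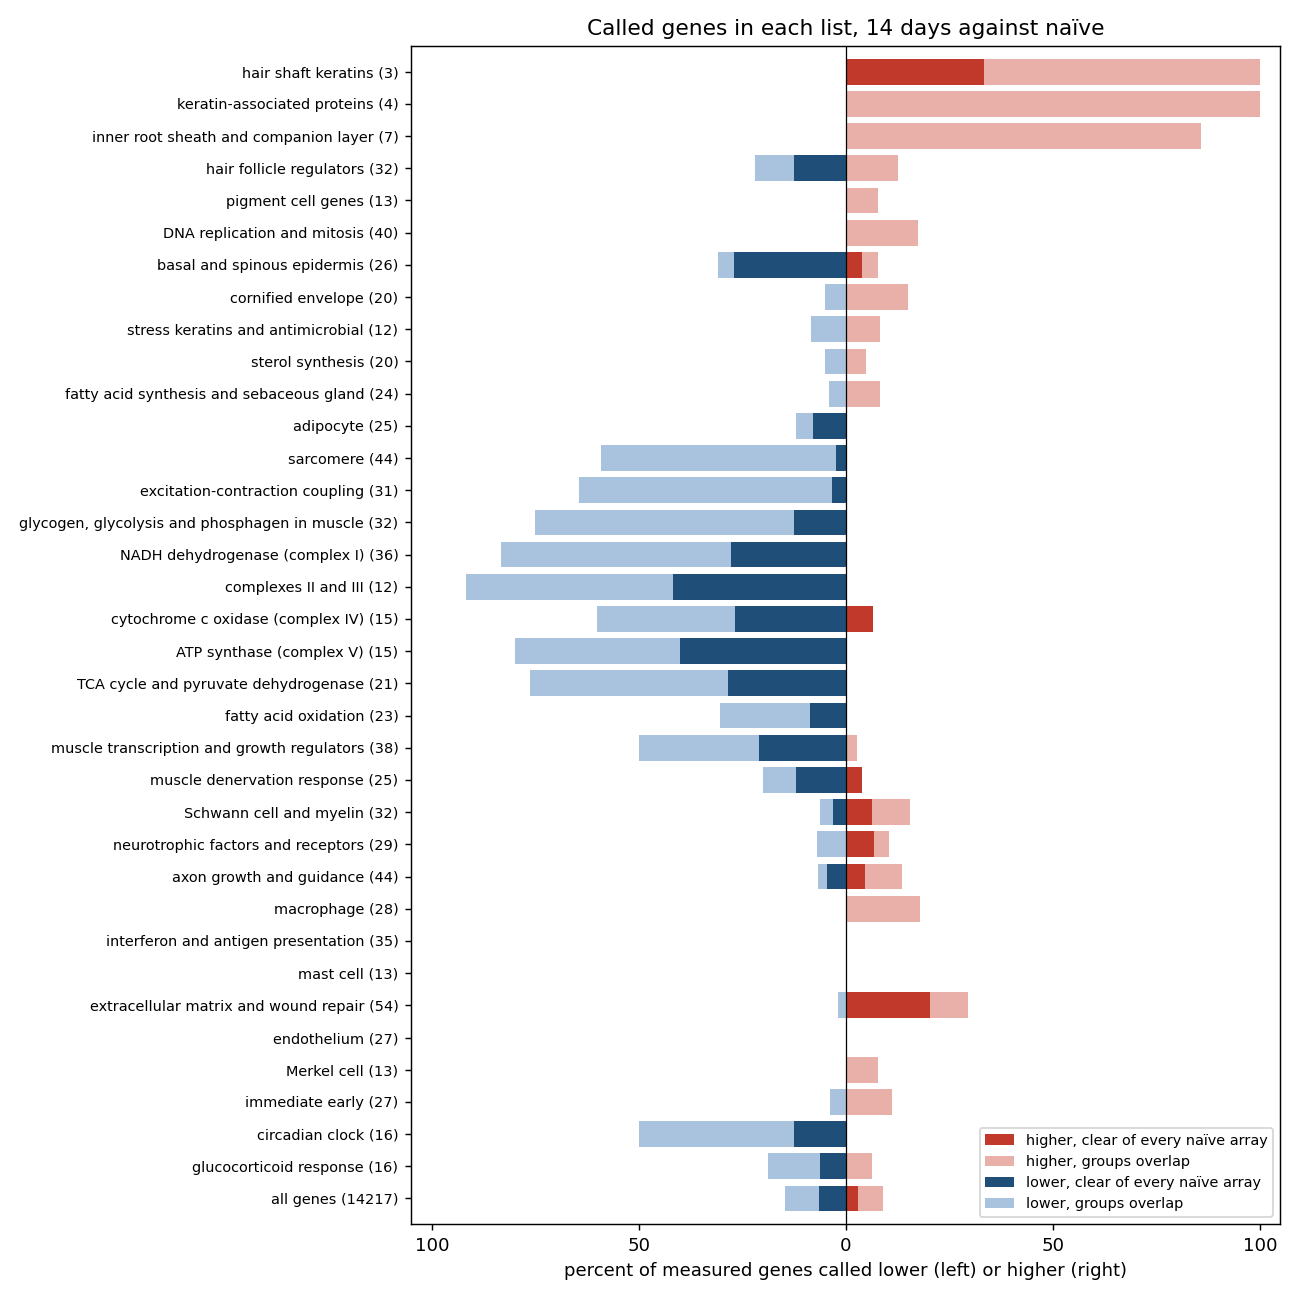
For each gene list, with the number of measured genes in parentheses, bars give the percent of genes called lower (left) or higher (right) at 14 days, with dark colours for genes clear of every naïve array and light colours for genes whose groups overlap. Muscle and hair bars are mostly light, whereas dark parts make up most of the lower bar of basal epidermis and of the higher bar of extracellular matrix; the last row gives all 14217 genes.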

How the data were processed

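RNA of 16 skin samples was measured on Affymetrix Rat Genome 230 2.0 arrays, with 1 array each. The authors deposited values on a log2 scale, made with robust multi-array averaging (RMA), and the submitters' processing notes name R 3.0.1. Of 31099 probesets, 57 controls, 9780 with no gene and 436 with several genes were left out. The other 20826, of which 20758 matched RefSeq (GRCr8) by Entrez identifier, gave a median for each gene (4525 genes had several probesets). All values of the table were used. Differences were tested in R 4.3.3 with limma 3.58.1, in 1 model with a mean for each of the 3 groups over all 16 arrays, at a Benjamini-Hochberg adjusted p under 0.05, and the test was tested on simulated data. The simulated arrays had independent noise, with the same spread of a gene in all groups. They held no division among naïve arrays, so they cannot show how the calls behave under it. The number of arrays limits the precision. The p-values set each difference between group means against the spread between samples, pooled over the 3 groups. That spread was unlike between groups, with a median SD over genes of 0.176 in naïve skin, 0.148 at 7 days and 0.098 at 14 days.

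Values were called near the lowest when the lower group mean was under the 25th percentile of gene means (5.50) and near the top when the higher group mean was above the 99.5th (12.3), and no size is read there. Named genes are the 10 with the widest gap in each direction, the 6 with the largest difference among overlapping genes in each direction, the called member with the lowest p of each of 35 lists, and a fixed set of genes, some of which are not reported here. The lists had 909 entries, 139 of them without a value. Members, lists and the leaving out of pairs of arrays were chosen with earlier results of these data known. Alternatives changed the reduction to genes, dim genes, scaling, weights, moderation, arrays in the model, a replicate block, thresholds and the arrays left out.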

Additional observations from a re-analysis of the deposited data

Results flagged for a closer look

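Of the 82 named genes, 20 differed between 14 and 7 days in the direct test (limma, adjusted p under 0.05), in which 8.86% of all genes were called higher and 10.1% lower at 14 days. Differences here are 14 days minus 7 days on the log2 scale. Of the 4 named genes of extracellular matrix and wound repair, 3 were lower at 14 days than at 7 days, with Lbp at -2.69, Timp1 at -2.18 and Sfrp2 at -1.61, although each was clear above every naïve array at 14 days, and Col1a1 did not pass. Cd68 of macrophages differed by -1.02 and Pecam1 of endothelium by -0.67. Of 21 named genes in the lists of muscle and oxidative metabolism, 6 were lower at 14 days, with Tcap at -1.28, Ppp3ca at -0.81, Dld at -0.49, Atp5mf at -0.36, Etfa at -0.28 and Cox4i1 at -0.26, and the other 15 did not pass, among them Mstn, Myh4, Ryr1, Gpd1, Ndufb1 and Uqcrh. Snx14 (-1.20), Etl4 (-0.71) and the clock gene Bhlhe41 (-1.0) had the same direction. Higher at 14 days than at 7 days were the hair keratin Krt36 (1.63) and Fosl1 (0.41). Crisp3, Lif, Krtap13-2l1 and Sprr3 were higher as well, but their 7 day means were near the lowest on the arrays, so that the fitted values (3.50, 0.46, 0.36 and 0.26) give a direction and no size.

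In 8 of the 164 groups of named genes (4.88%) a single sample stood far from the rest of its group. The share expected by chance was taken as about 1 in 20, and the comparison was not tested. The 8 samples were naïve replicate 3 in Otud1 (9.90) and Itgam (6.58), naïve replicate 5 in Sema3e (9.29), Adipoq (7.12) and Ngfr (5.93), 14 day replicate 4 in Serpinb2 (7.71), and 14 day replicate 5 in Sema3e (8.02) and Col1a1 (13.64).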

How the results depend on the processing

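Counts of called genes depended on the naïve arrays and on how their spread was weighted. With array weights, 3572 genes were higher and 3411 lower. Without naïve replicates 1 and 2 together, 3006 were higher, and 2542 higher and 2634 lower genes were clear. Without naïve replicates 4 and 5 together, 251 were higher (224 clear) and 708 lower. With each of the 16 arrays left out in turn, the number of higher genes ranged from 446 to 2150 and that of lower genes from 1209 to 2690, and clear genes ranged from 296 to 713 and from 782 to 1700. Each 14 day array and naïve replicates 1, 2, 4, 5 and 6 moved the higher count by more than 1.5 times, 14 day replicate 5 and naïve replicates 4 and 6 moved the lower count, and naïve replicate 2 moved both clear counts. At an adjusted p under 0.01, 158 higher (135 clear) and 630 lower genes (546 clear) were called, and 158 (27 clear) and 263 (60 clear) had a log2 difference of at least 1. Without the dimmest 25% of genes, 275 higher genes were clear. Genes shared with the 1272 and 2071 calls were 958 and 1767 after a second quantile normalization and 1018 and 2038 with array medians subtracted. With only the 14 day and naïve arrays in the model they were 836 and 1603, and 439 higher and 896 lower genes were clear.

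The replicate numbers belong to separate rats and did not pair the samples, since correlations between same-numbered naïve and 14 day arrays ran from -0.213 to 0.205. With the replicate number as a block, 367 genes were higher (227 clear) and 899 lower.

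Of 2450 values of named genes, 2194 kept direction and call, 216 lost the call, 29 gained one and 11 changed sign, all in genes that were not called. Krt14 was at 0.014 after quantile normalization. Adipoq was at 0.036 after quantile normalization, 0.11 with the replicate block, between -0.54 and 0.15 with single naïve arrays left out (0.11, 0.15 and 0.11 without naïve replicates 2, 3 and 6), and 0.19 without replicates 1 and 2. Pecam1 was at -0.14 with array weights, between -0.031 and 0.13 with single arrays left out (-0.0027 and -0.031 without naïve replicates 1 and 2), and -0.13 without both. Medians of lists moved by less than their spread in 971 of 980 cases. This does not speak for the calls within lists, which did move. Without naïve replicates 4 and 5 the called hair genes went from 13 to 1, and the lower muscle genes from 70 to 6. Trpm1, Sprr3, Krt18 and Gap43 lost their call after a second quantile normalization. The cause of these shifts was not tested. On these arrays, changes of genes near the lowest or highest values have no measured size.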

Other observations

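Gene families grouped by the start of their symbols, which can share members with the lists, were counted against the background of 6.37% of genes lower and clear of every naïve array. Ubiquitin-specific proteases (Usp) were lower and clear in 8 of 43 genes, genes with symbols starting with Zc in 6 of 18, and those with Ppp, which include phosphatase subunits, in 9 of 68. The Ppp genes include Ppp3ca, already counted above as lower and clear among the regulators of muscle fibres. These families were chosen after their values were seen, from 104 with at least 15 measured genes, of which 41 had a share above that background and 63 a share at or below it.

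Clear lower genes had long gene bodies, with a median span of 31.5 kb in RefSeq (GRCr8), against 24.1 kb for overlapping lower genes, 19.6 kb for clear higher genes and 22.3 kb over all genes with a span. This is a description of annotated length, with no test.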
